A study of Mus musculus with 6 samples.

Results

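The interferon regulatory factors (IRFs) are a family of transcription factors that share an amino-terminal DNA-binding domain, and 8 of its genes were followed here in haematopoietic stem and progenitor cells: Irf1, Irf2, Irf3, Irf4, Irf5, Irf7, Irf8 and Irf9. Every probe set that the annotation of the array gives to 1 of these genes alone was taken, which yielded 14 of 45037 probe sets and 8 of 18193 genes. The rule takes a probe set by its annotation and not by its values. Irf1, Irf2, Irf7 and Irf9 each had 1 probe set, and Irf3, Irf4, Irf5 and Irf8 had several, of which the brightest over all 6 arrays stands for the gene.

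The study measured RNA with Affymetrix arrays in LSK cells, which were sorted from bone marrow for c-Kit and Sca1 and against the markers of mature lineages, and which include the stem cells and multipotent progenitors of blood. Ikaros is a zinc-finger DNA-binding protein of blood cells that is encoded by Ikzf1. The comparison asked how gene expression differs when Ikaros is scarce, before T-cell development has begun. IkL/L mice are homozygous for a hypomorphic allele of Ikzf1, which lowers the amount of functional Ikaros in every cell that expresses the gene rather than deleting it in 1 cell type. All 3 IkL/L and all 3 WT samples came from C57BL/6 mice of 6 to 7 weeks. Each IkL/L sample was sorted from a pool of 2 mice and each WT sample from 1 mouse, so that the number of mice per sample goes with the genotype. From each sample 100 ng of total RNA was amplified in 2 cycles of labelling.

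IRFs bind variants of a GAAA repeat found in the promoters of interferon genes and of genes that interferons induce. Irf3, Irf5 and Irf7 are latent in the cytoplasm and are activated by kinases downstream of sensors of foreign nucleic acid, after which they switch on interferon genes. Irf9 is the DNA-binding subunit of the complex through which type I interferon acts on its target genes. Irf1 activates many of the genes induced by interferon gamma, and Irf2 competes with it for the same sites. Irf4 and Irf8 bind DNA poorly on their own and are recruited by partners such as PU.1 and Batf proteins. In bone marrow Irf8 is best known for directing progenitors to monocytes and dendritic cells at the expense of granulocytes, and Irf2 for protecting stem cells from chronic interferon signalling.

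All values below are log2 RMA values, the background-corrected, normalized and summarised signals of a probe set, and a difference is the mean of IkL/L minus the mean of WT. A feature counts as changed where limma gave an adjusted p under 0.05 over all 45037 probe sets. Arrays correlated with one another at 0.986 to 0.995, their medians lay between 4.79 and 4.88, and a typical probe set had an SD between replicates of 0.127 in IkL/L and 0.140 in WT (medians). Ikzf1 itself read 10.77, 10.85 and 10.93 in IkL/L and 11.57, 11.59 and 11.44 in WT on its brightest probe set (difference −0.68, adjusted p = 0.0307 in limma), and −0.21 on its other probe set (adjusted p = 0.622). The call of the brightest probe set was lost when any array but WT sample 3 was left out (adjusted p of up to 0.157 in limma). It was also lost with a term for replicate number in the fit (the replicate block, adjusted p = 0.118). The place of both probe sets with respect to the mutated sequence was not analysed. Of 8 genes that mark LSK cells 7 were measured, and Ly6a, which encodes Sca1, was the one without a probe set of its own. Means over the list were 10.19 to 10.51 in IkL/L and 10.47 to 10.73 in WT. None of the 7 changed, but 5 lay below 0 and 2 above, with a median of −0.13. Flt3, Hlf and Mecom were lower in IkL/L without overlap, as were 9.59% of all genes. Their differences were −0.88, −0.59 and −0.47 (adjusted p = 0.132, 0.447 and 0.328 in limma). Gata2 was higher without overlap (difference 0.30, adjusted p = 0.631). In bulk samples such as these, fewer cells of a type and less RNA per cell cannot be told apart.

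No IRF gene changed in IkL/L LSK cells at this threshold. The call was made for 0 of the 14 IRF probe sets, against 0.557% of all probe sets (251 of 45037), and for 0 of the 8 IRF genes, against 0.989% of all genes (180 of 18193). On the brightest probe set of each gene, the widest differences were found for Irf8, whose 3 IkL/L values all lay above the 3 WT values, and for Irf2, whose 3 IkL/L values all lay below them. These 2 of the 8 genes had an unadjusted p under 0.05 in limma on their brightest probe set, as did 11.2% of all genes. A gap between the groups with IkL/L on top was seen for 1 IRF gene and for 7.62% of all genes, and with IkL/L beneath for 1 IRF gene and for 9.59% of all genes. Over the 8 genes the median difference was 0.00, with 4 genes above 0 and 4 below, and over all genes it was −0.02.

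**Figure D1:**
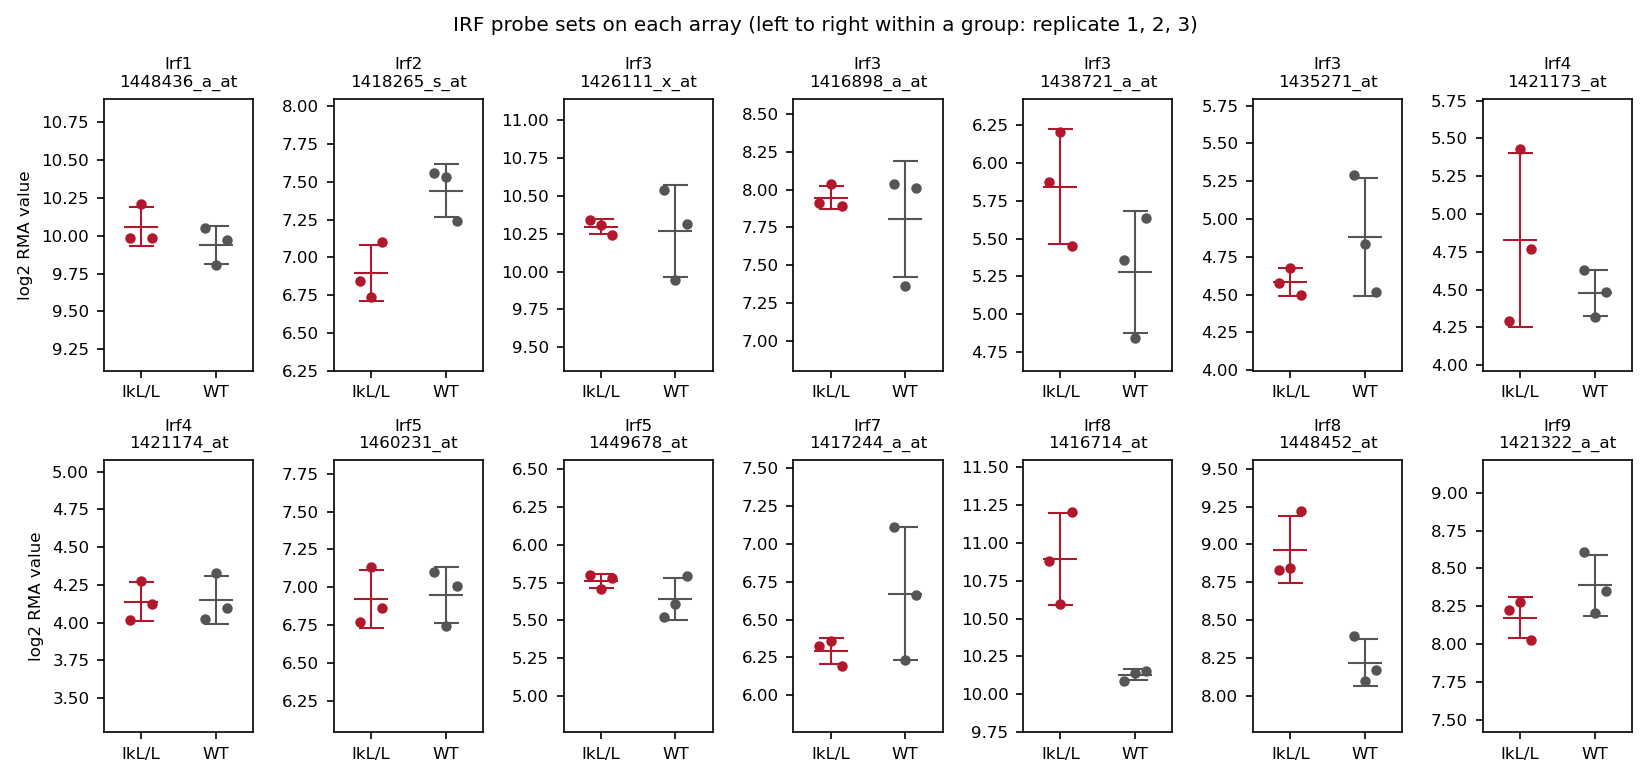
Log2 RMA values (y axis, spanning the same number of units in each panel) of the 14 IRF probe sets on each array, with IkL/L in red to the left of WT in grey; points are arrays and bars show the mean ± SD (n = 3). The IkL/L and WT points are separate for Irf8 on both probe sets and for Irf2, and overlap on the other 11 probe sets.

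Promoter windows are shown for the 2 genes whose groups did not overlap, Irf8 and Irf2, and for Irf1, which shares with both of them the gamma-activated site, a motif of promoters that respond to interferon gamma. The windows run from 250 bases before to 50 bases after an annotated start and were taken from RefSeq, build GRCm38.p6, in which all 8 IRF genes matched, with 11 windows in all. Both strands were searched for the core of the interferon-stimulated response element (GAAANNGAAA), the composite element of PU.1 and an IRF (GGAANNGAAA), the gamma-activated site (TTCNNNGAA) and a core recognised by Ikaros (TGGGAA). Capitals mark every match, and each window is on the plus strand, at chr8:120736108-120736407 for Irf8 (the first of its 2 annotated starts), chr8:46739495-46739794 for Irf2 and chr11:53769764-53770063 for Irf1 (the first of its 2 starts).
Irf8: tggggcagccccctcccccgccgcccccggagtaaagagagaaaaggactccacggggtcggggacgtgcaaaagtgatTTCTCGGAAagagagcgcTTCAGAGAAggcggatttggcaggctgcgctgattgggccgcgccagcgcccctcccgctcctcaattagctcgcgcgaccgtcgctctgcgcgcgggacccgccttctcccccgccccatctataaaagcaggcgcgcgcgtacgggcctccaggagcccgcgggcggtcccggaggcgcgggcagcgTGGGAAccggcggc
Irf2: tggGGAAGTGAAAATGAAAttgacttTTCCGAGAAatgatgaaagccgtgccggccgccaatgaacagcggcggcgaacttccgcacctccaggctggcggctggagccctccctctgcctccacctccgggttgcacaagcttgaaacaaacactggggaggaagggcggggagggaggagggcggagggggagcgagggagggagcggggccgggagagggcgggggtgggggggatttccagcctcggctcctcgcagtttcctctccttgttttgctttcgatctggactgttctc
Irf1: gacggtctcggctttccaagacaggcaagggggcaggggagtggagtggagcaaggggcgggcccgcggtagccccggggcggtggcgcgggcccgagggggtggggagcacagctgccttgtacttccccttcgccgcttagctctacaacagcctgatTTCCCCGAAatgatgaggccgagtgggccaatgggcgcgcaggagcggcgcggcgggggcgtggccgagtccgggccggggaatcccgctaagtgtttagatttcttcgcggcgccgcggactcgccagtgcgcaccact
The Irf8 window holds a pair of gamma-activated sites, TTCTCGGAA at −171 to −163 and TTCAGAGAA at −153 to −145 from the start, and 1 Ikaros core at 37 to 42. In the Irf2 window the composite element GGAAGTGAAA (−247 to −238) overlaps the response element GAAAATGAAA (−241 to −232) by 4 bases, and TTCCGAGAA follows at −224 to −216. The Irf1 window holds a single gamma-activated site, TTCCCCGAA, at −90 to −82.

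Among all 32851 promoter windows of the same length, 3.44% hold the core of the response element, 2.72% the composite element, 8.30% a gamma-activated site and 25.56% the Ikaros core. In the 11 IRF windows the response element and the composite element were found for Irf2 alone, the gamma-activated site for Irf1, Irf2 and Irf8, and the Ikaros core in 5 windows of 4 genes (Irf3, Irf5, Irf8 and Irf9). The genes with a gamma-activated site were, by their brightest probe sets, the one with the widest positive difference (Irf8), the one with the widest negative difference (Irf2) and 1 with overlapping groups (Irf1). These matches describe the letters of the windows, and binding was not measured in these samples.

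Irf8 had the widest difference of the family on either of its probe sets. Its brightest probe set, 1416714_at, read 10.88, 10.60 and 11.21 in IkL/L samples 1 to 3, against 10.09, 10.14 and 10.15 in WT samples 1 to 3. The WT samples lay close together, the IkL/L samples spread more widely, and a gap of 0.44 separated the lowest IkL/L value from the highest WT value. The means were 10.89 ± 0.30 in IkL/L and 10.13 ± 0.04 in WT (SD, n = 3 each), a 1.70-fold difference (95% interval 1.33 to 2.17) or 0.77 on the log2 scale (SE 0.15). The unadjusted p in limma was 0.00103, and the adjusted p of 0.100 did not pass.

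The second Irf8 probe set, 1448452_at, read 8.83, 8.84 and 9.22 in IkL/L, against 8.40, 8.09 and 8.17 in WT. It gave a like difference of 0.75 (95% interval 0.42 to 1.07, 1.68-fold), again with a gap of 0.44 and with IkL/L sample 3 on top, and its adjusted p was 0.0828 in limma. Both probe sets are annotated to 1 transcript accession and were read on the same 6 arrays, so they are not independent measurements of the gene.

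Whether Irf8 passes depended on which probe sets entered the fit and the adjustment. Reading each gene once also left out the probe sets listed with several genes or with none, and these changes were not separated. With the 2 Irf8 probe sets averaged, and every other gene treated alike, the difference was 0.76 and the adjusted p in limma was 0.0266 over 18193 genes. With the brightest probe set alone kept for each gene, a setting added after the data were seen, the difference stayed at 0.77 and the adjusted p was 0.0331. Over 13 other settings, which left several probe sets of a gene in the adjustment, the difference of 1416714_at ranged from 0.61 to 0.91 with an adjusted p of 0.0503 to 0.359, and that of 1448452_at from 0.62 to 0.84 with an adjusted p of 0.0664 to 0.224. IkL/L sample 3 carried the highest value on both, and without it the differences were 0.61 and 0.62.

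Irf4, the close relative of Irf8 that acts in B cells, plasma cells and activated T cells, was at the low end of the arrays. On 1421173_at it read 4.29, 5.43 and 4.77 in IkL/L, against 4.63, 4.32 and 4.49 in WT, and on 1421174_at 4.02, 4.28 and 4.12 in IkL/L, against 4.02, 4.33 and 4.10 in WT. Apart from IkL/L sample 2 on 1421173_at, these values lay below the array medians, and RMA values carry no detection call that would tell them from background. The differences were 0.35 (95% interval −0.25 to 0.95, adjusted p = 0.764) and −0.01 (adjusted p = 0.989) in limma. Both probe sets are annotated to the same accession, and the groups overlapped on each.

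The pair of Irf1 and Irf2, which bind the same sites with opposite effects on transcription, showed differences of opposite sign, neither of which passed. Irf2 (1418265_s_at) read 6.85, 6.74 and 7.10 in IkL/L, against 7.56, 7.53 and 7.24 in WT. The highest IkL/L value, that of sample 3, lay 0.14 below the lowest WT value, which was also that of sample 3. The means were 6.90 ± 0.18 in IkL/L and 7.44 ± 0.18 in WT (SD, n = 3 each), so that Irf2 was 1.46-fold lower in IkL/L (difference −0.55, SE 0.14, 95% interval −0.86 to −0.24). Its unadjusted p was 0.00371 and its adjusted p 0.199 in limma, and over the 13 other settings the difference ranged from −0.65 to −0.47 with an adjusted p of 0.115 to 0.549.

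Irf1 (1448436_a_at) read 9.98, 10.21 and 9.99 in IkL/L, against 10.05, 9.80 and 9.97 in WT. The groups overlapped, with means of 10.06 ± 0.13 in IkL/L and 9.94 ± 0.13 in WT (SD, n = 3 each). The difference of 0.12 had a 95% interval of −0.14 to 0.38 and an adjusted p of 0.827 in limma, so that a fold difference as large as that of Irf8 lies outside this interval.

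The 3 factors activated downstream of nucleic-acid sensors showed overlapping groups. Irf7, itself induced by interferon and needed for its amplification, read 6.33, 6.35 and 6.19 in IkL/L, against 7.11, 6.24 and 6.66 in WT. The IkL/L samples were close together, and WT sample 2 fell among them while the other WT samples lay above. The difference of −0.38 (95% interval −0.85 to 0.09) had an adjusted p of 0.661 in limma, and it ranged from −0.60 to −0.16 over the other settings.

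Irf3, which is present before infection and starts the interferon response, had 4 probe sets that gave different answers. The brightest, 1426111_x_at, read 10.34, 10.31 and 10.24 in IkL/L, against 10.54, 9.94 and 10.32 in WT (difference 0.03, 95% interval −0.32 to 0.38, adjusted p = 0.974 in limma). On 1416898_a_at the values were 7.91, 8.03 and 7.89 in IkL/L, against 8.04, 7.36 and 8.01 in WT (difference 0.14, adjusted p = 0.874). In both, WT sample 2 was the lowest of the 6 arrays and the remaining WT values lay among or above those of IkL/L.

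The dimmer Irf3 probe sets differed in sign. On 1438721_a_at the values were 5.88, 6.20 and 5.45 in IkL/L, against 5.36, 4.84 and 5.63 in WT, a difference of 0.57 (95% interval 0.01 to 1.12) with an unadjusted p of 0.0476 and an adjusted p of 0.558 in limma. On 1435271_at they were 4.58, 4.68 and 4.50 in IkL/L, against 5.29, 4.83 and 4.52 in WT, a difference of −0.30 (adjusted p = 0.719). The groups overlapped on both. The suffix of 1426111_x_at marks a probe set of which some probes may also bind other transcripts.

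Irf5, a factor of macrophages and B cells that acts downstream of Toll-like receptors, read 6.77, 7.14 and 6.87 in IkL/L, against 7.10, 6.74 and 7.01 in WT on its brightest probe set. The difference of −0.03 (95% interval −0.35 to 0.29, adjusted p = 0.974 in limma) was smaller than the spread within either group. The second probe set, 1449678_at, had 5.80, 5.70 and 5.78 in IkL/L and 5.52, 5.61 and 5.79 in WT (difference 0.12, adjusted p = 0.809). Irf9, through which type I interferon reaches its target promoters, read 8.22, 8.28 and 8.02 in IkL/L, against 8.61, 8.21 and 8.35 in WT (difference −0.21, 95% interval −0.51 to 0.09, adjusted p = 0.717). IkL/L sample 3 was the lowest of the 6 arrays for both Irf7 and Irf9, and WT sample 1 the highest.

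**Figure D2:**
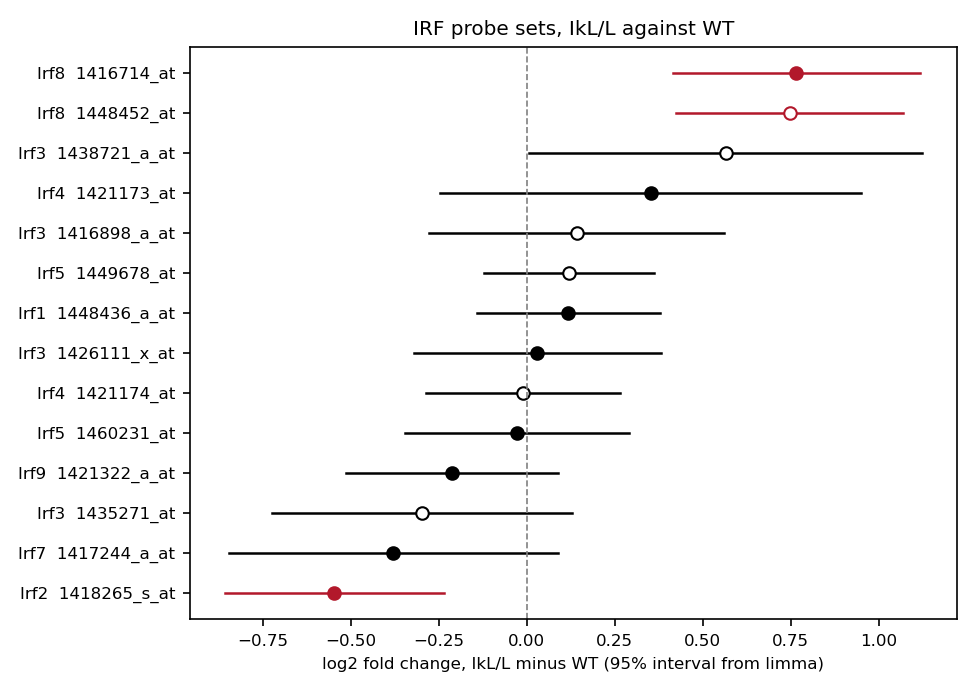
Difference in log2 RMA value between IkL/L and WT (x axis) for each IRF probe set, with its 95% interval from limma; filled points are the brightest probe set of a gene, open points the others, and red marks groups that do not overlap. The intervals of both Irf8 probe sets lie above 0, that of Irf2 lies below 0, and that of the Irf3 probe set 1438721_a_at starts at 0.01.

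Genes that act with the IRFs were read from 7 lists, which held 118 genes, 106 of them measured. For these lists the share of all genes that passed, 0.989%, is the background. The receptors for interferons and the kinases and STAT proteins behind them held 10 measured genes of 11 and none changed, with a median difference of 0.05. Ifngr1, the ligand-binding chain of the interferon gamma receptor, averaged 9.20 ± 0.10 in IkL/L and 8.80 ± 0.16 in WT (difference 0.40, adjusted p = 0.308 in limma). Stat2, the partner of Irf9, averaged 5.10 ± 0.05 in IkL/L and 5.39 ± 0.18 in WT (difference −0.29, adjusted p = 0.509). Ifnlr1, a receptor chain for interferon lambda, differed by −0.21 (adjusted p = 0.600). The list had 6 genes above 0 and 4 below.

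Upstream of Irf3, Irf5 and Irf7, 18 of 22 sensors, adaptors and kinases were measured and none changed, with 8 above 0, 10 below and a median of −0.08. The lowest was Tlr7, an endosomal receptor for single-stranded RNA that signals to Irf5 and Irf7. It read 5.45, 5.19 and 5.19 in IkL/L, against 6.44, 5.93 and 6.11 in WT, with no overlap. The difference of −0.88 missed the threshold (adjusted p = 0.0580 in limma), and it passed in 2 of 12 other settings. Traf6, the ubiquitin ligase downstream of most Toll-like receptors, differed by −0.34 (adjusted p = 0.245), and Tlr3, a receptor for double-stranded RNA whose values lay below the array medians, by 0.38 (adjusted p = 0.304).

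Among 9 partners and cofactors of the IRFs, all measured, Batf2 rose and the other 8 did not pass. Batf2, a basic leucine zipper protein induced by interferon that can pair with Irf1 in mouse macrophages, read 6.43, 6.61 and 6.59 in IkL/L, against 5.76, 5.78 and 5.83 in WT. Its difference was 0.75 (SE 0.10, adjusted p = 0.0182 in limma), a 1.69-fold increase. The call was held in 7 of 13 other settings and was lost with the replicate block (adjusted p = 0.0724 in limma). It was also lost when any array but WT sample 3 was left out, with an adjusted p of up to 0.113 and a difference of 0.72 to 0.81. Spib, a relative of PU.1 that recruits Irf4 and Irf8, read 4.29, 4.73 and 3.83 in IkL/L, against 3.60, 3.43 and 3.23 in WT, all below the array medians (difference 0.87, adjusted p = 0.208). Spi1, which encodes PU.1, differed by −0.11 (adjusted p = 0.907; this gene was chosen after its values were seen), and the corepressor Irf2bp2 by −0.24 (adjusted p = 0.747).

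On the side of the targets, 25 of 27 genes induced by type I interferon were measured and none changed. Of these, 18 lay below 0 and 7 above, with a median of −0.09, beside −0.02 over all genes. The array means of this list were 7.86, 7.93 and 7.48 in IkL/L and 8.05, 7.75 and 7.94 in WT, which overlapped, and IkL/L sample 3 was the lowest, as it was for Irf7 and Irf9. Rtp4, a chaperone of receptor transport, read 9.67, 9.81 and 8.97 in IkL/L, against 10.47, 10.21 and 10.10 in WT (difference −0.78, adjusted p = 0.286 in limma). Ifit3, an antiviral RNA-response protein, differed by −0.38 (adjusted p = 0.363), and Usp18, the protease that removes Isg15 and dampens the receptor, by −0.44 (adjusted p = 0.547).

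Of 25 target genes of Irf1 and interferon gamma 22 were measured and none changed, with 13 above 0, 9 below and a median of 0.07. Casp1, the protease of inflammasomes, read 9.80, 9.62 and 10.06 in IkL/L, against 9.30, 9.39 and 9.28 in WT (difference 0.50, adjusted p = 0.223 in limma). Il15, a cytokine for natural killer and memory T cells, averaged 8.01 ± 0.28 in IkL/L and 8.57 ± 0.15 in WT (difference −0.56, adjusted p = 0.277). The feedback inhibitor Socs1 differed by 0.31 (adjusted p = 0.578).

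The list of genes that Irf8 governs in monocytes and dendritic cells held 12 measured genes of 13, and 4 of them rose, while 11 of the 12 lay above 0 with a median of 0.80. Csf1r, the receptor for macrophage colony-stimulating factor, read 11.71, 11.54 and 11.82 in IkL/L, against 9.91, 10.04 and 9.84 in WT, a 3.39-fold increase (difference 1.76, adjusted p = 0.00200 in limma) that passed in all 13 other settings. Its other 2 probe sets rose by 1.55 and 1.26. Id2, an inhibitor of basic helix-loop-helix factors needed for dendritic cells, rose by 0.99 (adjusted p = 0.0297).

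Cybb, the catalytic subunit of the phagocyte oxidase, read 6.82, 6.74 and 6.31 in IkL/L, against 5.14, 4.14 and 5.09 in WT (difference 1.83, adjusted p = 0.0347 in limma). Cx3cr1, a chemokine receptor of monocytes and of dendritic cell progenitors that was named after its values were seen, read 7.13, 6.37 and 7.59 in IkL/L, against 5.15, 4.86 and 5.46 in WT (difference 1.87, adjusted p = 0.0430). Single arrays bore on these calls. That of Id2 was lost without any array but WT sample 3 (adjusted p of up to 0.158 in limma). That of Cybb was lost without WT sample 1 or any IkL/L sample (up to 0.184), and that of Cx3cr1 without any array but IkL/L sample 2 (up to 0.216). With all arrays kept, the call of Cx3cr1 was also lost under a second quantile normalization (0.0525). Those of Id2 and Cybb were lost with the replicate block (0.076 and 0.072). The other probe sets of these 3 genes did not pass. Klf4, a factor downstream of Irf8 in monocytes, differed by 1.25 (adjusted p = 0.630), and Il12b by −0.11 (adjusted p = 0.888), both named after their values were seen. Whether these genes followed Irf8 was not tested.

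Lists of marker genes of several lineages differed in part between IkL/L and WT, not all in the same direction. Before the sort, cells positive for B220, CD11b, Gr1 or Ter119 had been depleted with beads. This step removes B cells, most mature myeloid cells and those erythroid cells that carry Ter119. The sort itself was again against lineage markers. Of 10 markers of monocytes and macrophages 9 were measured, with array means of 6.05 to 6.13 in IkL/L and 5.40 to 5.90 in WT. Csf1r (which is also in the list above), Ccr2 and Cd14 rose. The other probe sets of Ccr2 did not pass, with differences of 1.05, 0.45 and 0.03 (adjusted p = 0.179, 0.644 and 0.964 in limma). The list was split, with 5 genes above 0, 4 below and a median of 0.11, and the complement genes C1qa, C1qb and C1qc differed by −0.87, −0.21 and −0.52 (adjusted p = 0.500, 0.760 and 0.660 in limma). Within that list the defining markers Itgam (4.02 ± 0.45 in IkL/L and 4.14 ± 1.00 in WT) and Adgre1 (5.30 ± 0.07 in IkL/L and 5.19 ± 0.08 in WT) did not pass. Itgam encodes CD11b, against which the cells of both groups were depleted, so its values say little on monocytes. Conventional dendritic cell markers (7 of 8 measured) averaged 5.89 to 6.26 in IkL/L and 5.58 to 5.65 in WT, with Cd74 and H2-Eb1 higher, while Itgax was 4.66 ± 0.10 in IkL/L and 5.24 ± 0.11 in WT (adjusted p = 0.0764 in limma). Plasmacytoid dendritic cell markers (7 of 7) averaged 6.13 to 6.48 in IkL/L and 6.10 to 6.36 in WT, and none changed. Markers of neutrophils and their precursors (8 of 8) averaged 6.80 to 7.45 in IkL/L and 6.00 to 6.47 in WT, with Lcn2 and Elane higher. Erythroid markers (4 of 6 measured) averaged 8.14 to 9.02 in IkL/L and 7.27 to 7.61 in WT, and none passed, although all 4 had higher values in IkL/L without overlap (median difference 1.15). Megakaryocyte markers (5 of 5) averaged 8.61 to 9.02 in IkL/L and 7.74 to 8.36 in WT, and all 5 lay above 0 (median 0.53). Vwf, which the paper also lists among genes with functions in stem and progenitor cells, rose by 1.73 (adjusted p = 0.0154 in limma). Stromal markers (5 of 5) averaged 5.22 to 5.51 in IkL/L and 5.66 to 7.09 in WT, and all 5 lay below 0 (median −1.20) with none passing. Markers of T and NK cells (6 of 8 measured) averaged 5.70 to 5.75 in IkL/L and 5.70 to 5.81 in WT.

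Genes of the immediate early response, which dissociation and handling of cells can also induce, were higher on average in IkL/L, with overlap between the groups. They averaged 8.65 to 9.90 in IkL/L and 7.83 to 8.74 in WT, and all 13 of 13 lay above 0 with a median of 0.75. The mean was highest in IkL/L sample 2 and lowest in WT sample 1. Without overlap 1 of the 13 was higher in IkL/L, beside 7.62% of all genes. Hspa1a, a heat shock chaperone, rose by 1.67 (adjusted p = 0.0425 in limma), and the other 12 did not pass. The part of cells of the lineages above, and of this response, in the Irf8 values was not tested.

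In the programme that Irf4 and Irf8 serve in B and plasma cells, 10 of 11 genes were measured, of which 2 rose, 4 lay above 0 and 6 below, with a median of −0.16. Vpreb1, part of the surrogate light chain of pre-B cells, read 7.60, 7.86 and 7.75 in IkL/L, against 6.37, 6.40 and 6.30 in WT (difference 1.38, adjusted p = 0.00274 in limma), and passed in all 13 other settings. Mzb1, a chaperone of antibody secretion, read 6.97, 8.08 and 6.56 in IkL/L, against 5.08, 4.87 and 4.90 in WT (difference 2.25, adjusted p = 0.0362), and its call was lost without IkL/L sample 1 or any WT sample (adjusted p of up to 0.159). Jchain, which joins secreted antibodies, read 9.51, 9.59 and 7.29 in IkL/L, against 6.49, 5.60 and 5.92 in WT, did not pass (adjusted p = 0.112), and passed without IkL/L sample 3 (adjusted p = 0.00748). IkL/L sample 3, the highest for Irf8, was the lowest of the IkL/L samples for Mzb1 and Jchain. B cell markers (6 of 7 measured) averaged 5.25 to 5.74 in IkL/L and 4.93 to 5.01 in WT. Of these 4 lay above 0 and 2 below, with a median of 0.24. Ms4a1 alone passed (difference 2.38), and its other probe set did not (1.83, adjusted p = 0.135 in limma). Pax5 and Ebf1 differed by −0.22 and −0.23 (adjusted p = 0.736 and 0.729). Plasma cell markers (5 of 5, Mzb1 and Jchain among them) averaged 6.58 to 7.51 in IkL/L and 6.33 to 6.63 in WT. Mzb1 was higher and Sdc1 lower. The other probe sets of Sdc1 differed by −2.25, −0.90 and −0.05 (adjusted p = 0.00220, 0.0432 and 0.924 in limma). The calls of Ccr2, Cd14, Cd74, H2-Eb1, Lcn2, Elane, Ms4a1, Sdc1, Vwf and Hspa1a were each lost without IkL/L sample 1 and without WT sample 1, and over all single arrays left out the adjusted p in limma reached 0.216 for Hspa1a and 0.167 for the others. With all arrays kept, the calls of Ccr2, Cd74, H2-Eb1, Sdc1, Vwf and Mzb1 were also lost with the replicate block. That of Hspa1a was lost under a second quantile normalization (adjusted p = 0.0557 in limma). The part of B and plasma cells in the values of the B and plasma cell programme was not tested.

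**Figure D3:**
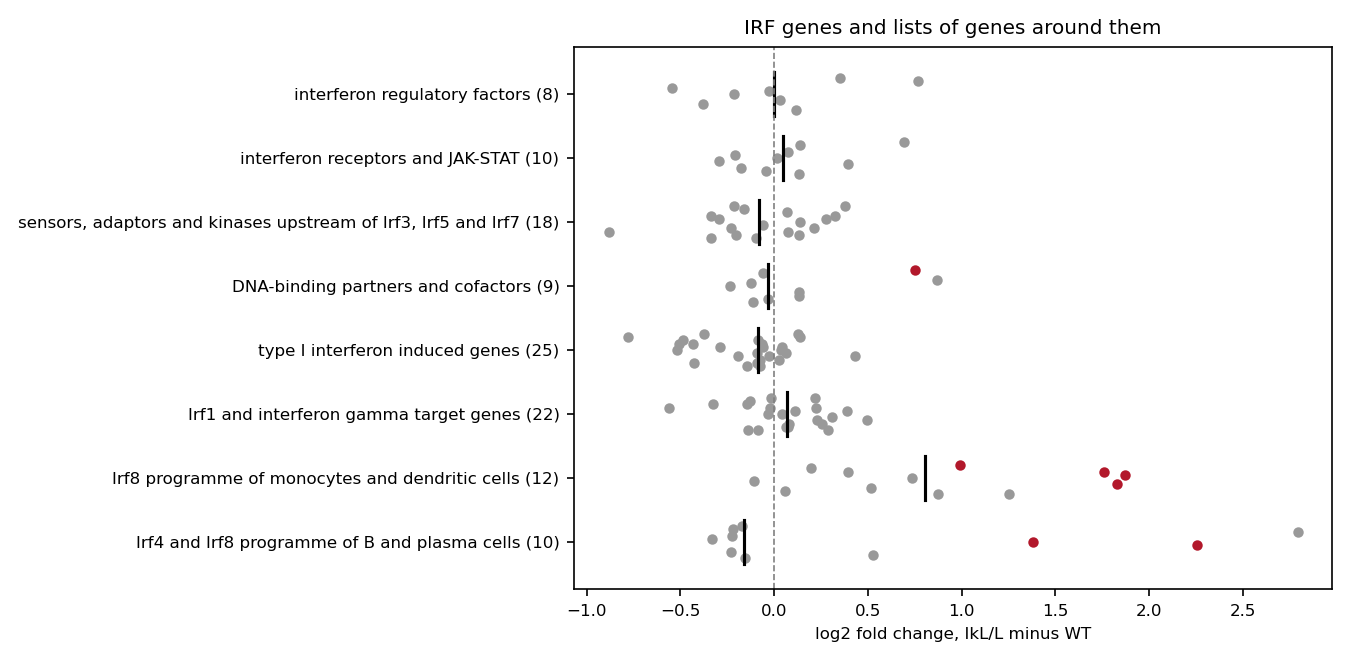
Difference in log2 RMA value between IkL/L and WT (x axis) for the 8 IRF genes and for the measured genes of 7 lists around them (number in brackets), each point the brightest probe set of a gene. Black bars are medians and red points passed an adjusted p of 0.05 in limma, which no IRF gene did and 4 of 12 genes did in the Irf8 programme of monocytes and dendritic cells.

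The genes whose values ran most like those of Irf8 over the 6 arrays, among 11277 genes at or above the median level, were Morrbid, a long non-coding RNA known for the survival of short-lived myeloid cells (Pearson's r = 0.997), Tlr12, a receptor for parasite profilin (r = 0.994), and Casp1 (r = 0.992). Their differences were 0.79, 0.49 and 0.50, with adjusted p-values of 0.107, 0.224 and 0.223 in limma. The points share 6 arrays in 2 genotypes, and 206 genes had an r over 0.9 with Irf8, so these correlations are a description. Irf8 (1416714_at), Csf1r, Ccr2 and Cx3cr1 had their highest value in IkL/L sample 3 and the lowest of the IkL/L values in sample 2. Casp1 had the same order, which its choice by correlation with Irf8 favours. Elane and Mpo, of the list of neutrophils and their precursors, had this order too. The other genes of that list were highest of the IkL/L samples in sample 1. Other genes ran otherwise: sample 3 was the lowest of the IkL/L samples for Cybb and Klf4, and Id2 was highest in sample 2. The second Irf8 probe set was the lowest of the IkL/L values in sample 1.

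**Figure D4:**
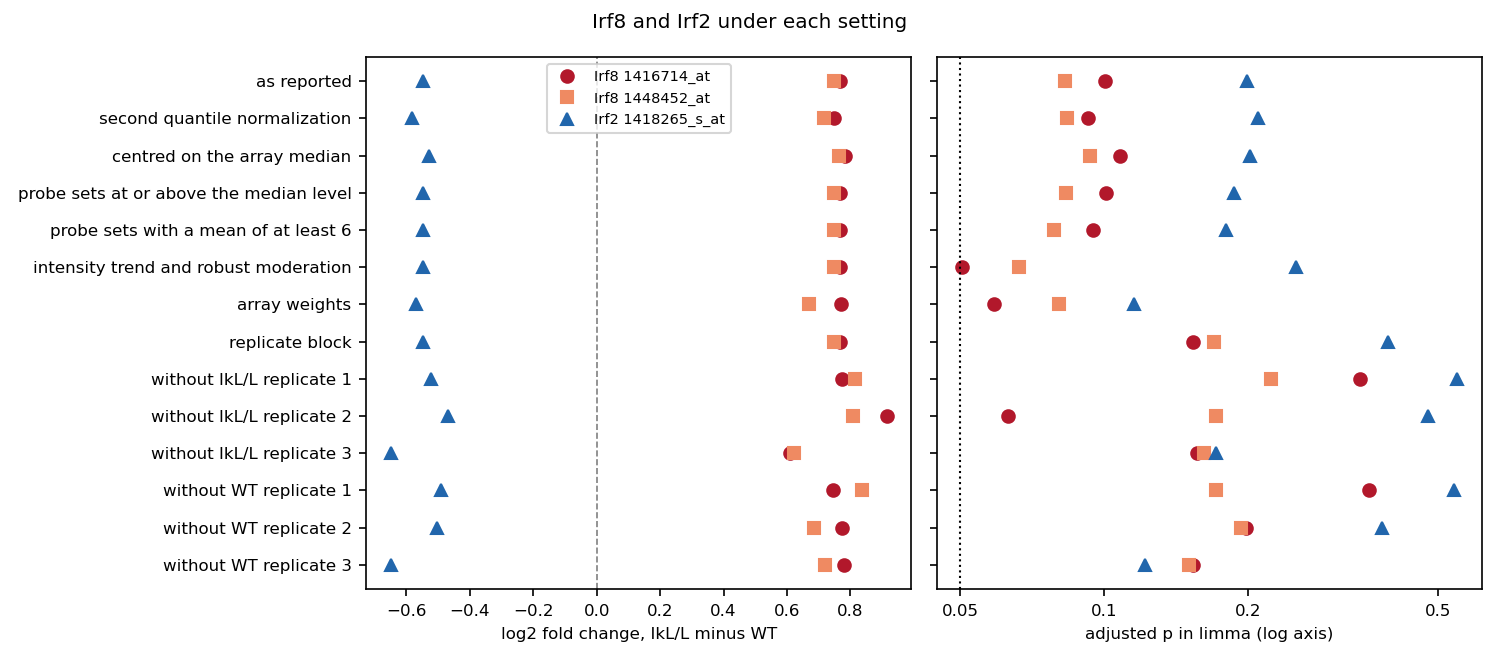
Difference in log2 RMA value between IkL/L and WT (left, x axis) and adjusted p in limma (right, log axis, dotted line at 0.05) for both Irf8 probe sets and for Irf2, as reported and in 13 other settings (rows). The Irf8 differences lie between 0.61 and 0.91 and those of Irf2 between −0.65 and −0.47, and no point reaches 0.05.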

How the data were processed

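RNA of 6 LSK samples (3 IkL/L, 3 WT) was hybridised to Affymetrix mouse genome arrays. The deposited values are on the log2 scale and were computed by the authors with RMA, which the submitters' processing notes name beside R 2.8. The study's methods describe a joint normalization with thymocyte arrays, and whether the deposited table came from it is not visible in its values. Quantile normalization removes changes in total RNA. Precision is limited by the number of arrays. Since IkL/L samples are pools of 2 mice and WT samples single mice, p-values reflect the spread between such samples.

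Probe sets took their genes from the annotation of the platform, and symbols were updated by Entrez number (34741 of 34945 single-gene probe sets) through RefSeq, GRCm38.p6. Of the other probe sets, 932 list several genes and 9160 are not listed. IkL/L and WT were compared with genotype as the sole term in limma 3.58.1 (R 4.3.3; two-sided moderated test), with Benjamini-Hochberg adjustment over 45037 probe sets and a threshold of 0.05. The fit was tested on simulated arrays. Levels of different probe sets were compared only to choose the brightest and to set values against array medians.

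The members and lists were chosen with earlier results of these data known. Beyond the members and Ikzf1, the rule named up to 3 genes per list with the smallest p and the 3 genes most correlated with Irf8. Marker genes, Cx3cr1, Klf4, Il12b and Spi1 were named after their values were seen. Alternatives were a second quantile normalization, median centring, 2 filters on dim probe sets, trend with robust moderation, array weights, other ways to read a gene, a replicate block, and leaving out each array.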

Additional observations from a re-analysis of the deposited data

How the results depend on the processing

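No result changed sign against a call, and no single IRF probe set passed an adjusted p of 0.05 in limma in any of the settings that kept all probe sets or filtered dim ones. The count of IRF genes that passed was 1 in place of 0, namely Irf8, when the probe sets of a gene were averaged and when 1 probe set per gene entered the fit, the second of these chosen after seeing the data. It stayed at 0 when 1 array was left out (lowest 0, highest 0). Of 45037 probe sets 251 passed, 143 with the replicate block and between 57 (without WT sample 1) and 287 (without WT sample 3) with 1 array left out. The sign was kept in all settings for Irf1, Irf2, Irf4 (brightest probe set), Irf7, Irf8 and Irf9, and the difference of the brightest probe set changed sign in some for Irf3 (kept in 11 of 13) and Irf5 (9 of 13), none of which passed.

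The groups share replicate numbers, but samples of the same number did not deviate together (correlations of deviations 0.01, −0.11 and 0.08 for numbers 1, 2 and 3), so the numbers were not taken to pair them. With the replicate block the adjusted p was 0.153 and 0.170 for the Irf8 probe sets and 0.393 for Irf2, and only IkL/L sample 3 correlated best with the WT sample of its own number. With 3 arrays per group, the 95% intervals of the IRF differences extended 0.24 to 0.60 to either side, and smaller differences could not be told from 0.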
